A study of Mus musculus with 2 samples.

Results

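Immune checkpoint receptors and the B7 ligands that they bind were followed through the CD45+ cells of mouse skin with house dust mite dermatitis. The set comprised 10 genes of the 27998 in the deposited gene list: the receptor genes Ctla4, Pdcd1, Lag3, Tigit, Cd160 and Icos, and the ligand genes Cd274, Pdcd1lg2, Cd80 and Cd86. They were picked out by symbol, as a set drawn up with earlier results of these data known, and each symbol matched 1 gene. Counts were read over barcodes with 500 or more unique molecular identifiers (UMIs, 1 per captured RNA molecule), 250 or more genes and under 10% mitochondrial UMIs.

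Cells came from the dorsal neck skin of WT C57Bl/6 mice and of IL31RAKO mice on that strain, which lack the receptor subunit for the itch cytokine IL-31. Both groups received Biostir ointment, which contains the mite D. farinae, with 2 applications weekly over 3 weeks on the shaved back, and a 2% solution of the detergent SDS preceded every application by 2 hours. Skin of 4 mice was pooled per genotype, live (DAPI-) CD45+ cells were sorted, and 30000 cells per pool went into a Chromium Single Cell 3′ v2 library. The comparison asks what loss of IL-31 signalling changes in mite-induced skin inflammation. Each genotype is thus 1 pool and 1 library, no untreated skin was analysed here, and no test between genotypes can be made. Ages and sexes were not given in the sources used here.

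T cell responses are set by a second signal beside the antigen receptor. CD80 and CD86 on antigen-presenting cells engage CD28 to promote activation, and CTLA-4, which regulatory T cells carry constitutively, binds the same ligands and restrains it. ICOS is a costimulatory relative of CD28. PD-1, encoded by Pdcd1, is inhibitory and binds PD-L1 (Cd274) and PD-L2 (Pdcd1lg2). LAG-3 binds MHC class II, TIGIT binds the poliovirus receptor, and CD160, found on cytotoxic lymphocytes, binds HVEM. Skin holds the cells on both sides of these pairs: resident T cells and innate-like lymphocytes, and Langerhans cells, dendritic cells and macrophages.

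Cd274 and Pdcd1lg2, the genes of the 2 PD-1 ligands, are neighbours in the same orientation on chromosome 19, and their start regions are shown because the levels of the genes across cell classes, given below, overlapped in part only. RefSeq promoter windows (GRCm38.p6, from 250 bases before to 50 after the start, 5′ to 3′ on the + strand) were at hand for 7 of the 10 genes. The windows were searched on both strands for a pair of inverted half-sites, TTC and GAA, with any 4 bases between them (the spacing preferred by STAT6, the factor downstream of IL-4 and IL-13). The Cd274 window lies at chr19:29367188-29367487 and held no match. The Pdcd1lg2 window lies at chr19:29410669-29410968 and held 1 match, printed in capitals, with its first base 82 bases before the start.
Cd274: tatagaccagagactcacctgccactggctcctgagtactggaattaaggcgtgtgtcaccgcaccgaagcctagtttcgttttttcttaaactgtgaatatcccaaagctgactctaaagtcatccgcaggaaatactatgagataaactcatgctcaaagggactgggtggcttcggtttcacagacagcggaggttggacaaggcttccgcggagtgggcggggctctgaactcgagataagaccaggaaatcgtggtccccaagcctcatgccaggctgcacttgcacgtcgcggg
Pdcd1lg2: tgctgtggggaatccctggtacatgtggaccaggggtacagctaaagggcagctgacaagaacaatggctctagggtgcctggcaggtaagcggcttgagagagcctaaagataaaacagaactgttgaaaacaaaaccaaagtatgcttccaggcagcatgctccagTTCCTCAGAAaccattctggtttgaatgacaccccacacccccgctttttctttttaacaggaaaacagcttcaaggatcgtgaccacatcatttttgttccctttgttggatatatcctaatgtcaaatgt
Among 32851 promoter windows of 300 bases, 6.95% held the motif, and of the 7 genes with a window Pdcd1lg2 was the 1 that did. A match describes the letters alone, and a window without one says only that these letters are not in it.

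The other genes lie elsewhere in the same build (GENCODE M21 gene spans). Ctla4 (ENSMUSG00000026011, chr1:60887000-60915832, +) and Icos (ENSMUSG00000026009, chr1:60977927-61000320, +) are close together, and Pdcd1 (ENSMUSG00000026285, chr1:94038305-94052553, -) is on the same chromosome. Cd80 (ENSMUSG00000075122, chr16:38455561-38496335, +), Cd86 (ENSMUSG00000022901, chr16:36603869-36666081, -) and Tigit (ENSMUSG00000071552, chr16:43648867-43664146, -) share chromosome 16. Lag3 (ENSMUSG00000030124) spans chr6:124904361-124911705 (-), Cd160 (ENSMUSG00000038304) chr3:96798763-96829351 (-), Cd274 (ENSMUSG00000016496) chr19:29367455-29388095 (+) and Pdcd1lg2 (ENSMUSG00000016498) chr19:29410919-29471161 (+). A pseudogene, Rpl18-ps1, overlaps Ctla4 on the same strand and Gm37039 overlaps Icos, so reads in those stretches may have gone uncounted.

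The libraries held 57000499 (WT) and 71333292 (IL31RAKO) UMIs. After removal of likely doublets, 10795 and 12909 cells remained, with medians of 2829 and 2980 UMIs. Clustering without the 10 genes gave 26 classes, named "-like" from marker genes and otherwise by their leading genes, and 20 classes had 100 or more cells in each library. Il31ra itself gave 10 and 24 UMIs, and since a 3′ tag may lie outside the deleted part of the gene, it does not check the labels. Levels are CPM, the UMIs of a gene scaled to 1000000 UMIs of its class and library, with 95% intervals in square brackets that cover counting error only. T cell genes were also read in cells that should lack them, and their levels there serve as a background: keratinocyte-like cells and the fibroblast and endothelial cluster, which the CD45+ sort should have removed, reached up to 15.6 and 24.0 CPM of Ctla4 (WT and IL31RAKO), 39.9 and 25.7 of Icos and 10.4 and 13.7 of Pdcd1. The part estimated from free RNA in the droplets was 6.38 and 12.5 CPM for Ctla4 in the keratinocyte-like cells, and other sources were not tested. The same cells reached 7.39 and 9.16 CPM of Cd86 and no more than 4.44 of Cd274 and Pdcd1lg2 in either library.

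The receptor genes were read mainly in lymphocytes, the CTLA-4 ligand genes mainly in myeloid cells, and the PD-1 ligand genes in both. Lymphoid classes held 37.6% of all UMIs but 91.2% of those of Icos and of Cd160, 89.5% of Ctla4, 89.0% of Pdcd1, 70.5% of Lag3 and 54.2% of Tigit. Myeloid classes held 59.1% of all UMIs, 87.2% of those of Cd86 and 83.2% of Cd80, but 57.3% of Cd274 and 60.9% of Pdcd1lg2. The PD-1 ligand genes were thus read in lymphocytes nearly in proportion to the lymphocytes' share of RNA, at 41.8% and 38.8% of their UMIs, while the CTLA-4 ligand genes were not, at 16.0% for Cd80 and 12.6% for Cd86.

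**Figure D1:**
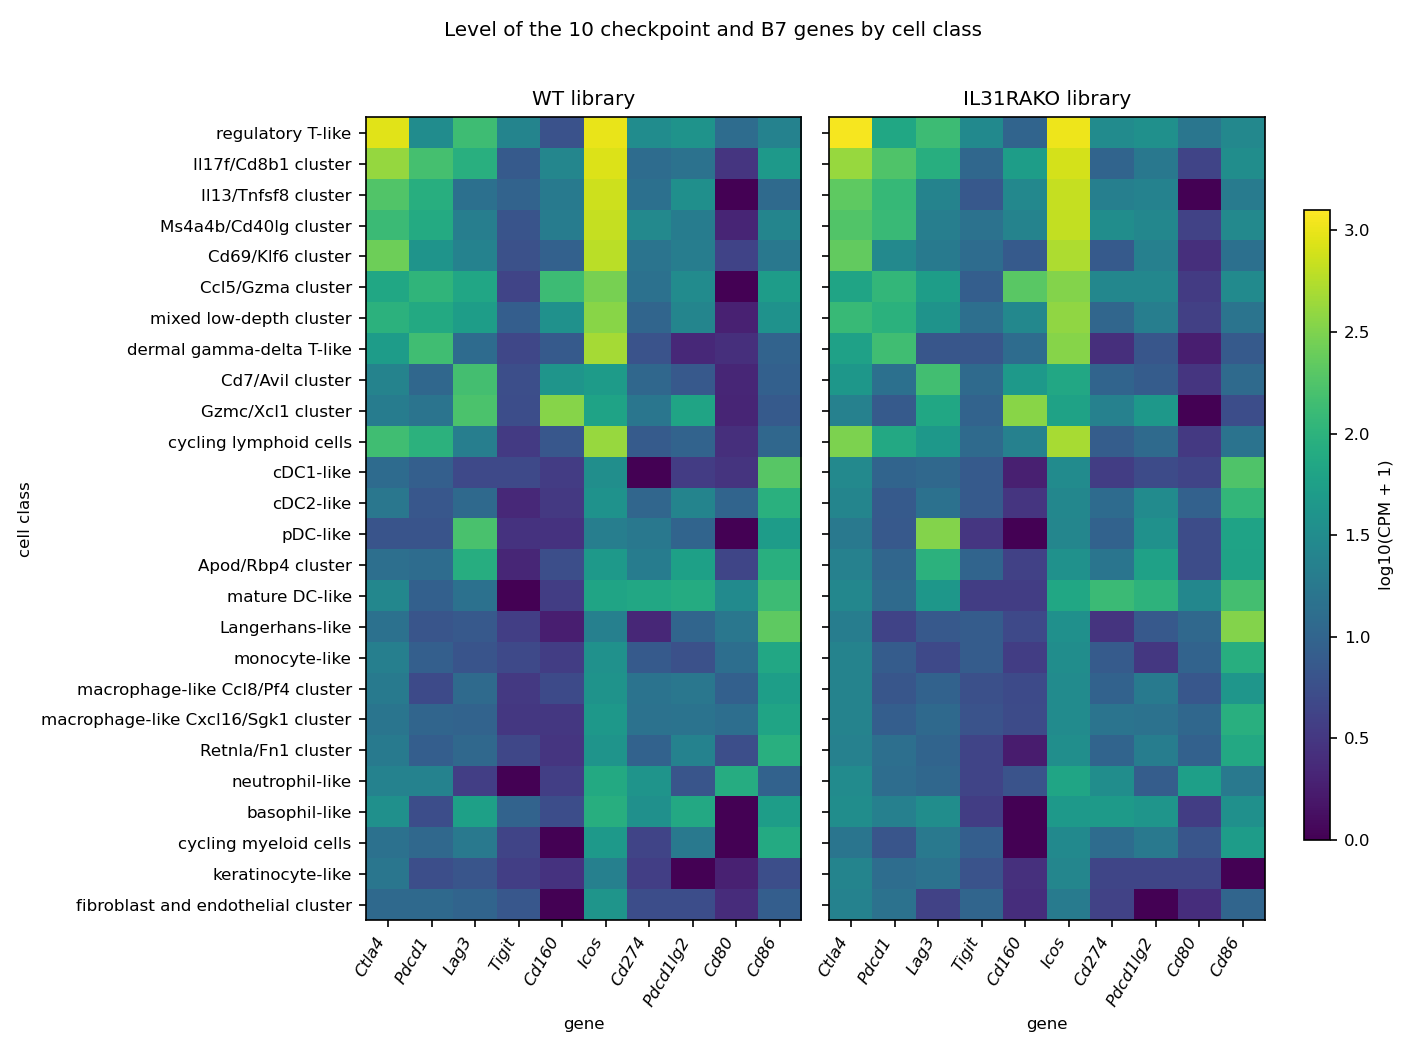
Level of the 10 genes in 26 cell classes (rows) in the WT library (left) and the IL31RAKO library (right), as log10(CPM + 1) on a colour scale. Ctla4 and Icos are brightest in the regulatory T-like cells, Cd160 in the Gzmc/Xcl1 cluster, Lag3 also in the pDC-like cells, and Cd86 in the Langerhans-like cells.

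Ctla4 was highest in the regulatory T-like cells, defined by Foxp3, Ikzf2, Il2ra, Tnfrsf4 and Tnfrsf18. It stood there at 902 CPM [849, 958] in the WT library and 1150 [1105, 1197] in the IL31RAKO library, and next in the Il17f/Cd8b1 cluster, T cells led by Il17f, Il22, Cd8a and Cd8b1, at 411 and 417. The ranges of these classes, here and below the span of the 2 library values and not a spread of replicates, did not overlap. The Il17f/Cd8b1 cluster held more cells (1616 WT and 1416 IL31RAKO, against 496 and 860), and so gave 36.0% of all Ctla4 UMIs, against 31.2% from the regulatory T-like cells. Below them, the Cd69/Klf6 cluster (262 and 225), cycling lymphoid cells (142 and 308) and the Il13/Tnfsf8 cluster (179 and 216) overlapped in their ranges.

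Icos was also highest in the regulatory T-like cells, at 998 CPM in the WT library and 1044 in the IL31RAKO library. The order then ran through the Il17f/Cd8b1 cluster (875 and 793), the Il13/Tnfsf8 cluster (739 and 678), the Ms4a4b/Cd40lg cluster (674 and 660), which carries both Cd8a (208 and 191) and Cd4 (106 and 117), and the Cd69/Klf6 cluster (605 and 521), with no overlap between neighbours. Icos was therefore graded over most T cell classes, whereas the mean Ctla4 level of the regulatory T-like cells was 2.48 times that of the next class. Within the Il17f/Cd8b1 cluster, thinned to 1000 UMIs per cell, an Icos UMI was found more often in cells with a Ctla4 UMI (62.7% [58.2, 67.1] WT, 63.4% [58.6, 68.0] IL31RAKO) than in those without (53.2% [50.2, 56.3] and 48.9% [45.6, 52.2]). Among the 18 gene pair and class combinations examined, this pair alone had intervals that did not overlap in both libraries.

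Pdcd1 followed another order, led by T cells with a type 17 signature rather than by the regulatory T-like cells. It reached 153 CPM (WT) and 174 (IL31RAKO) in the Il17f/Cd8b1 cluster and 139 and 142 in the dermal gamma-delta T-like cells, which carry Cd163l1, Blk and Il17a. The Ccl5/Gzma cluster (107 and 113), the Il13/Tnfsf8 cluster (87.9 and 117), the Ms4a4b/Cd40lg cluster (78.1 and 125) and cycling lymphoid cells (97.1 and 73.6) came next with overlapping ranges. The Il17f/Cd8b1 cluster gave 40.4% of all Pdcd1 UMIs and the dermal gamma-delta T-like cells 15.2%.

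Lag3 had no single leading lymphocyte. Among lymphocytes it stood at 150 CPM (WT) and 146 (IL31RAKO) in the Cd7/Avil cluster of Cd3-bearing cells and 135 and 131 in the regulatory T-like cells. It stood at 166 and 68.3 in the Gzmc/Xcl1 cluster, which carries the natural killer genes Ncr1 and Klra7 and the cytotoxic gene Gzma. Its highest mean over the libraries was in a myeloid class of 68 and 60 cells, the pDC-like cells, which carried Siglech and Tcf4 and also the monocyte genes Plac8 and Ly6c2. There it reached 162 CPM [130, 199] from 89 UMIs in the WT library and 330 [280, 386] from 155 in the IL31RAKO library. A Lag3 UMI was found in 44 of 68 and 41 of 60 of these cells, so no single cell carried the level. When cells were instead assigned one by one from their markers, the mean level in pDC-like cells was 104 CPM in place of 246 and the Cd7/Avil class led.

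Cd160 was led by cytotoxic lymphocytes. It stood at 345 CPM (WT) and 355 (IL31RAKO) in the Gzmc/Xcl1 cluster, which held 1.51% of all UMIs but 312 of the 715 Cd160 UMIs of the WT library and 161 of the 861 of the IL31RAKO library. The Ccl5/Gzma cluster of cytotoxic T cells followed with 133 and 200, then the Cd7/Avil cluster with 40.8 and 46.7 and the Il17f/Cd8b1 cluster with 25.4 and 52.2. Tigit, with 172 and 393 UMIs in all, was highest in the regulatory T-like cells at 24.1 and 28.7 CPM, and 43.0% of its UMIs lay in myeloid classes.

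**Figure D2:**
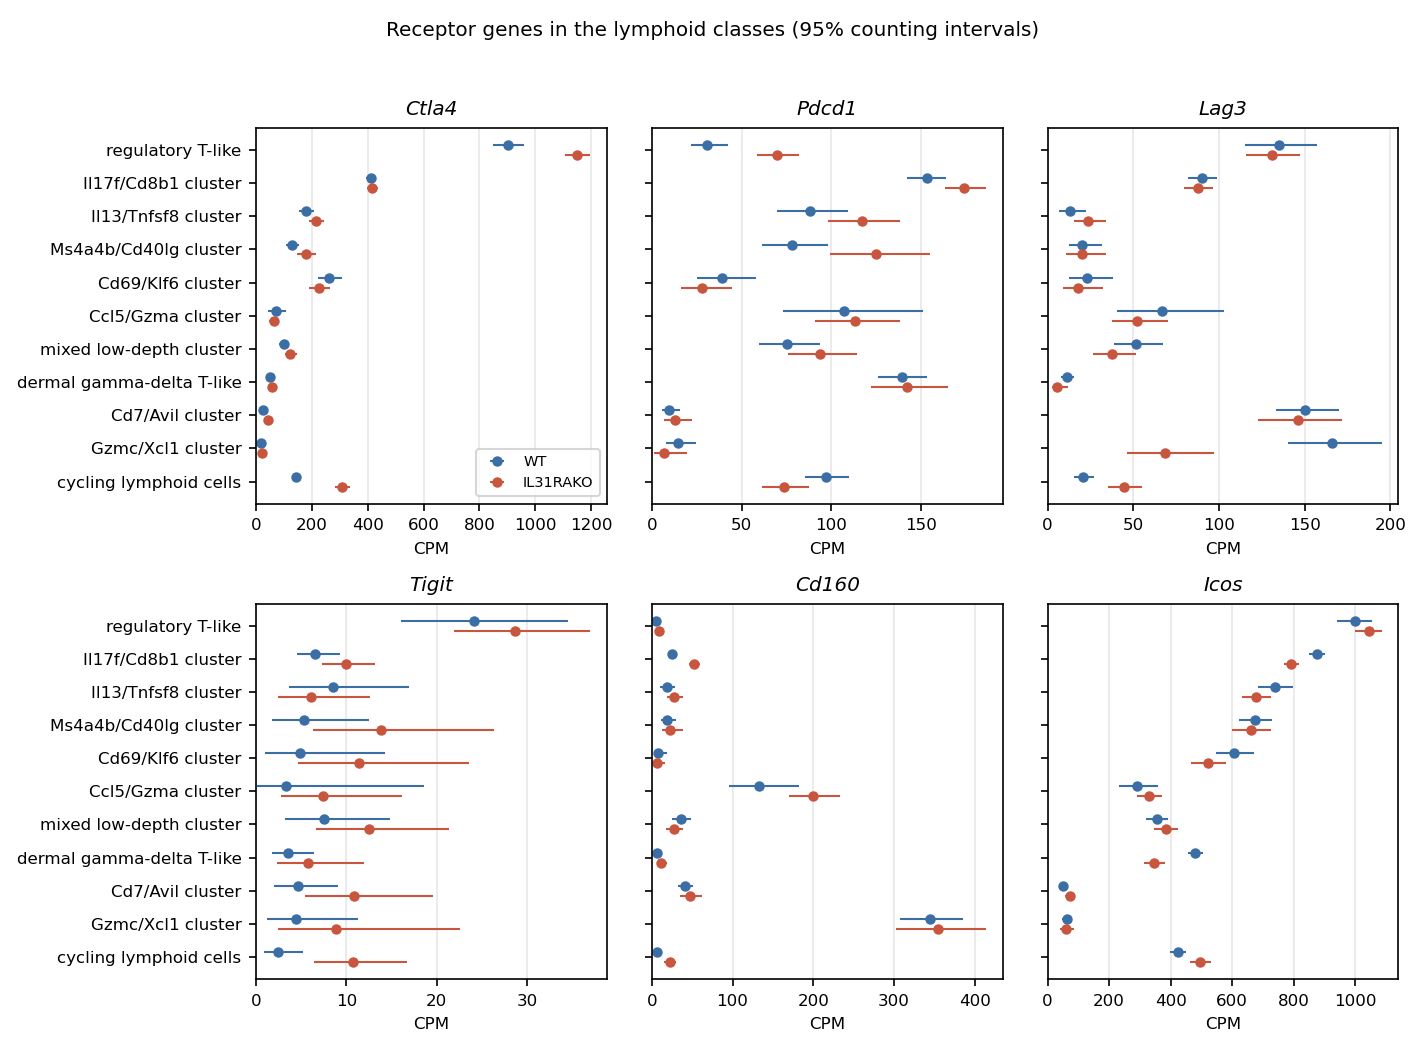
CPM of the 6 receptor genes (panels, linear axes from 0) in the lymphoid classes, with WT in blue, IL31RAKO in red and bars for 95% counting intervals. Ctla4 separates the regulatory T-like cells (902 and 1150) from all other lymphoid classes, Icos grades over the T cell classes, and Cd160 stands apart in the Gzmc/Xcl1 cluster (345 and 355).

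Cd86 marked the antigen-presenting cells. It was highest in the Langerhans-like cells (Cd207, Epcam, Ltc4s), at 212 CPM in the WT library and 334 in the IL31RAKO library, then in the cDC1-like cells (198 and 175), the mature DC-like cells (131 and 149) and the cDC2-like cells (92.1 and 112), with no overlap between the ranges of these neighbours, though the counting intervals of the small mature DC-like class reached those of the classes beside it. The Retnla/Fn1 cluster (89.5 and 72.8), monocyte-like cells (71.0 and 86.2) and the macrophage-like Cxcl16/Sgk1 cluster (63.9 and 88.3) overlapped. Cd80, the other ligand of CTLA-4 and CD28, had a different distribution: it was highest in the neutrophil-like cells, at 81.3 CPM from 29 UMIs (WT) and 55.8 from 85 (IL31RAKO). The mature DC-like cells followed at 29.3 and 26.6, and the Langerhans-like cells stood at 16.0 and 10.2. Neutrophil-like cells held 2.09% of all UMIs and 17.7% of those of Cd80.

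Both PD-1 ligand genes were highest in the mature DC-like cells, a class of 53 and 45 cells with Ccr7, Fscn1 and Ccl22. Cd274 reached 71.9 CPM (WT) and 130 (IL31RAKO) there, and Pdcd1lg2 79.9 and 101. They parted below that class. Cd274 came next in basophil-like (34.7 and 48.3) and neutrophil-like cells (39.2 and 32.2), and then in the regulatory T-like cells (30.8 and 30.2). Pdcd1lg2 came next in the Apod/Rbp4 cluster (56.8 and 58.6), basophil-like cells (73.7 and 40.3) and the Gzmc/Xcl1 cluster (63.0 and 44.0), whose ranges overlapped. It stood at 38.3 and 34.5 in the regulatory T-like cells. In the WT library the basophil-like level of Pdcd1lg2 (73.7) was close to that of the mature DC-like cells (79.9). Both classes are small, with 95 basophil-like cells in the WT library, so their order rests on few UMIs.

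**Figure D3:**
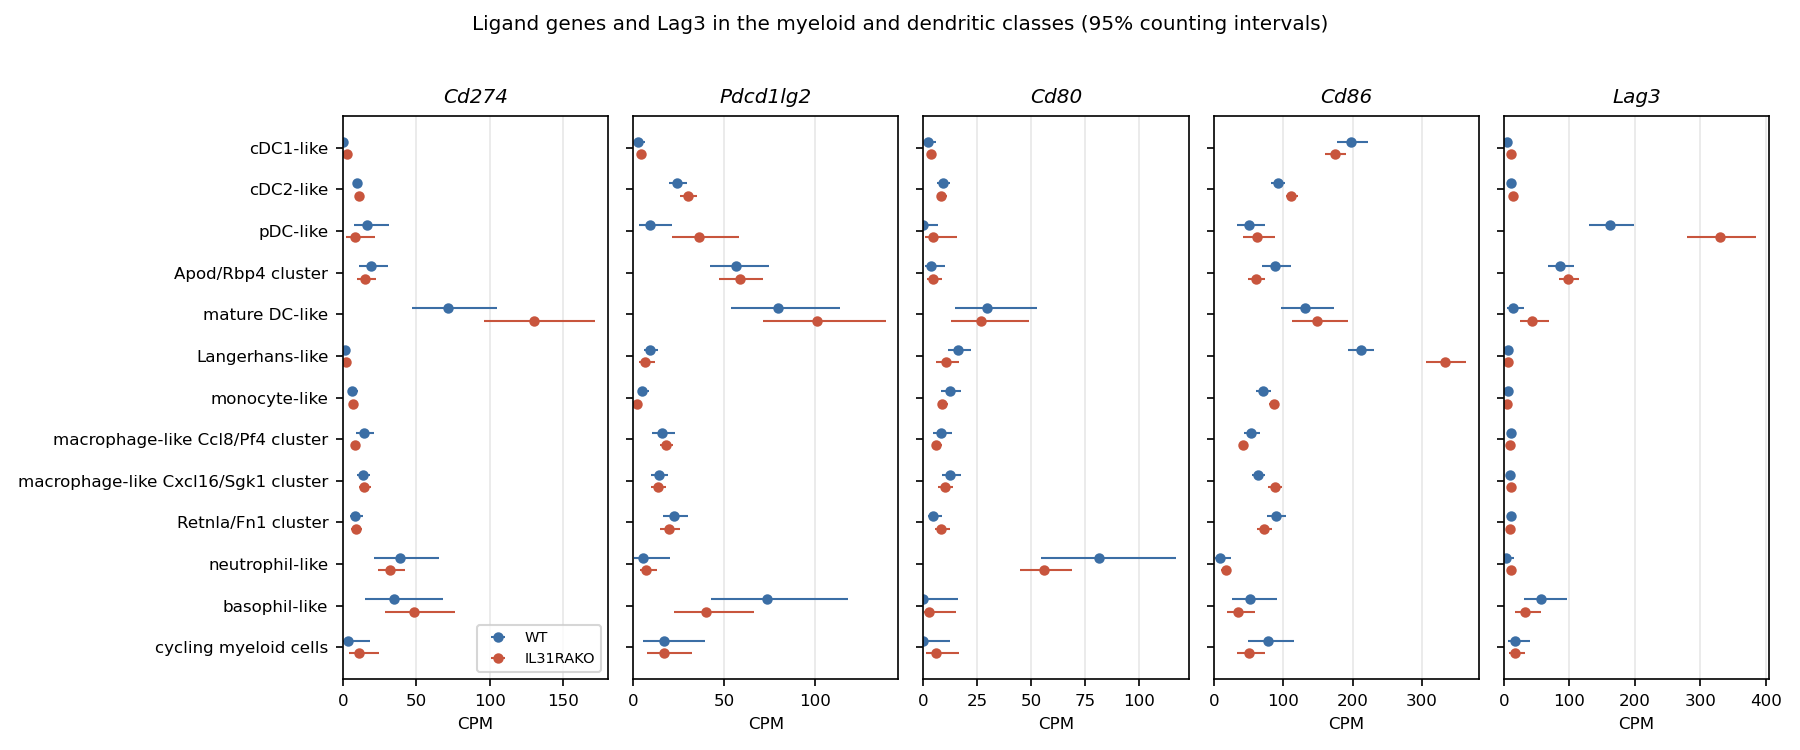
CPM of the 4 ligand genes and Lag3 (panels, linear axes from 0) in the myeloid and dendritic classes, with WT in blue, IL31RAKO in red and bars for 95% counting intervals. Cd86 is highest in the Langerhans-like cells, Cd80 in the neutrophil-like cells and both PD-1 ligand genes in the mature DC-like cells, whose bars are wide because the class is small.

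Genes of like pattern were found by Pearson's r of log2(CPM + 10) over 40 points, the 20 compared classes in each library. These points share libraries, classes and depth, so the values are descriptions. Among 10781 genes, Icos ran closest to Rora (0.99), Ikzf3 (0.97) and Cish (0.97), Ctla4 to Lamc1 (0.94), Tnfrsf4 (0.93) and Dusp4 (0.93), and Pdcd1 to Ikzf3 (0.93), Tesc (0.92) and Acsbg1 (0.91). Cd160 ran with the natural killer receptor genes Klrc2 (0.91) and Klrc1 (0.90) and with Smyd3 (0.89), Cd80 with Ccrl2 (0.94), Rhog (0.91) and Nlrp3 (0.91), and Cd86 with H2-DMa (0.89), Lsr (0.88) and Ppfia4 (0.88). Lag3 (Ptpn5 0.82, Zdhhc15 0.80, Mr1 0.79), Tigit (Tnfrsf4 0.80, Col18a1 0.80, Sdf4 0.79), Cd274 (Tgoln1 0.75, 2310001H17Rik 0.72, Ptprc 0.69) and Pdcd1lg2 (Fam46a 0.68, Itgb3 0.67, Cd200r1 0.61) had looser company. Within the set, Ctla4 and Icos had the highest value (0.92), then Pdcd1 and Icos (0.90), while Cd274 and Pdcd1lg2 gave 0.51.

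Over all cells, Ctla4 was at 115 CPM in the WT library and 132 in the IL31RAKO library, Tigit at 4.32 and 7.84, and Cd86 at 62.1 and 72.4. Icos was at 279 and 214, Pdcd1 at 48.6 and 39.9 and Lag3 at 39.2 and 34.3, lower in the IL31RAKO library. These totals move with the mix of cells: regulatory T-like cells were 4.59% of WT and 6.66% of IL31RAKO cells, dermal gamma-delta T-like cells 8.03% and 2.87%, and monocyte-like cells 6.09% and 11.0%. The genotypes were therefore compared within classes, by the ratio of CPM, IL31RAKO over WT, for the 102 gene and class pairs with 50 or more UMIs over both libraries.

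In 15 of the 102 pairs (14.7%) the level was 1.5-fold or more higher in the IL31RAKO library, and in 5 (4.90%) it was 1.5-fold or more lower. Over all genes and the same classes, by the same rule, 4.32% of 111298 pairs were higher and 4.49% lower. The share of lower pairs was thus near the background and that of higher pairs above it. The receptor genes gave 14 of the higher pairs and 1 of the lower among 69 compared, with a median log2 ratio of 0.18. The ligand genes gave 1 higher and 4 lower among 33, with a median of -0.15, against -0.00 over all pairs. In 83 of the 102 pairs the level was above that of the keratinocyte-like and the fibroblast and endothelial cells in both libraries, and of these 10 were higher and 5 lower. Some of the 10 were barely above it, as Ctla4 in the cDC2-like cells (15.9 and 24.7 against 15.6 and 24.0 CPM). The pairs left out were all of receptor genes, and the receptor counts and median above include them. The share of all genes was not counted for pairs chosen this way, so the 10 and 5 have no background.

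**Figure D4:**
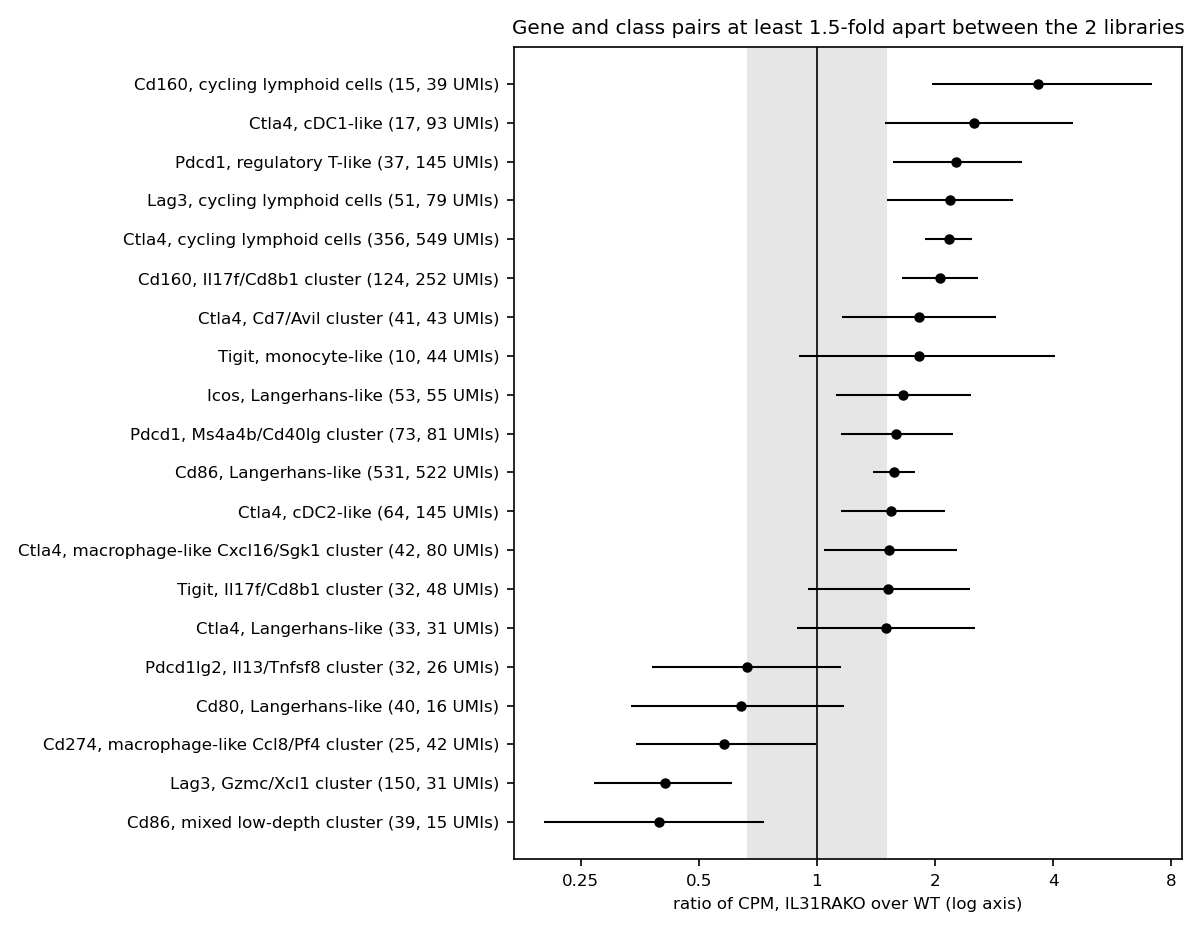
Ratio of CPM, IL31RAKO over WT, on a log axis for the 20 pairs of gene and class at least 1.5-fold apart, with 95% counting intervals and the UMIs of each library in brackets on the vertical axis. The ratios run from 0.395 for Cd86 in the mixed low-depth cluster to 3.66 for Cd160 in cycling lymphoid cells, and 5 of the intervals reach across 1.

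Pdcd1 was higher in the regulatory T-like cells of the IL31RAKO library. It stood at 30.8 CPM from 37 UMIs in the WT library and at 69.5 from 145 in the IL31RAKO library, a ratio of 2.26 [1.56, 3.33]. Among the 8 members compared in this class it was the 1 that passed 1.5-fold, where 4.61% of all 5916 genes did. The class was split after these values were seen. Cells with a Foxp3 UMI had 27.3 CPM [15.9, 43.7] and 76.0 [61.1, 93.6], and those without had 34.5 [21.1, 53.2] and 61.1 [46.2, 79.4], higher in the IL31RAKO library in both, with intervals that overlap in the cells without. Cd8a was also higher in the class, at 44.9 and 87.7 CPM, and in cells without a Cd8a UMI Pdcd1 stood at 31.4 [21.8, 43.9] and 61.3 [50.1, 74.3].

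The other receptor genes differed less in the regulatory T-like cells. The ratio was 1.28 [1.19, 1.37] for Ctla4, below 1.5-fold, and after thinning to 1000 UMIs per cell a Ctla4 UMI was found in 50.5% of WT cells [45.6, 55.3] and 61.8% of IL31RAKO cells [58.1, 65.3] (74.4% and 79.8% unthinned). In keratinocyte-like cells the unthinned share was 17.0% and 24.4% at far deeper medians of 9917 and 12318 UMIs. Icos (1.05 [0.974, 1.12]), Tigit (1.19 [0.753, 1.93]) and Lag3 (0.971 [0.797, 1.19]) had intervals that included 1, as did the PD-1 ligand genes Cd274 (0.981 [0.644, 1.51]) and Pdcd1lg2 (0.902 [0.615, 1.34]). With cells assigned one by one from markers the Ctla4 ratio was 1.56.

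Cd160 was higher in the Il17f/Cd8b1 cluster of the IL31RAKO library, at 52.2 CPM from 252 UMIs against 25.4 from 124 in the WT library, a ratio of 2.06 [1.65, 2.57]. In the split made after these values were seen, cells with a Cd8a UMI went from 31.5 CPM [25.5, 38.5] to 60.2 [52.1, 69.3] and cells without from 15.5 [10.4, 22.2] to 35.4 [26.6, 46.0], WT to IL31RAKO, while Cd8a itself stood at 422 and 429 CPM. Tigit also passed 1.5-fold there (6.54 and 9.95 CPM, from 32 and 48 UMIs, 1.52 [0.952, 2.46]), against 2.73% of all genes in the cluster. Its interval included 1 and its levels were near those of the keratinocyte-like and stromal cells, at up to 5.92 and 9.16. The other receptors of these cells were close to equal: Ctla4 at 1.02 [0.955, 1.08], Lag3 at 0.977 [0.853, 1.12], Pdcd1 at 1.14 [1.03, 1.26] and Icos at 0.907 [0.868, 0.948].

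In the Ccl5/Gzma cluster Cd160 was just under the 1.5-fold limit, at 133 and 200 CPM (interval of the ratio [1.05, 2.17]), as Ctla4 in the Langerhans-like cells was just over it. The difference lay in cells with a Cd8a UMI, at 168 [117, 233] and 301 [255, 352], and in those without one the order was the opposite, at 54.8 [17.8, 128] and 23.7 [9.54, 48.9], with intervals that overlap. Dissociation stress genes stood at 5584 and 3006 CPM in this cluster, and their part in the difference was not tested. In the Gzmc/Xcl1 cluster, where Cd160 was highest, it did not differ beyond counting error (1.03 [0.844, 1.25]).

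Lag3 was lower in the Gzmc/Xcl1 cluster of the IL31RAKO library, the 1 receptor pair in that direction. It stood at 166 CPM from 150 UMIs in the WT library and 68.3 from 31 in the IL31RAKO library, a ratio of 0.411 [0.270, 0.609], where 6.61% of all genes were 1.5-fold or more lower. In the split made afterwards, cells with a Cd3 UMI stood at 164 CPM [135, 196] and 67.4 [41.1, 104], and cells without at 174 [120, 244] and 70.0 [34.9, 125]. A Cd3 UMI was found in 149 of 200 and 63 of 103 cells, but the Cd3 level was 1383 and 1447 CPM. A Cd3 UMI does not by itself mark a T cell, since 80.7% of the keratinocyte-like cells had one. The split therefore does not separate T cells from natural killer cells. Cd8a stood at 21 and 63.9 CPM, and its part in the Lag3 difference was not tested. Lag3 was at equal levels in the Cd7/Avil cluster (0.971 [0.788, 1.19]), and in the pDC-like cells, too few for the comparison, the IL31RAKO library was the higher.

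In cycling lymphoid cells 3 of the 6 members compared were higher in the IL31RAKO library, where 4.46% of all genes were. Ctla4 stood at 142 CPM (356 UMIs) and 308 (549), a ratio of 2.17 [1.89, 2.48], Lag3 at 20.4 (51) and 44.4 (79), 2.18 [1.51, 3.16], and Cd160 at 5.99 (15) and 21.9 (39), 3.66 [1.97, 7.14]. The makeup of this class moved with the genotype. Gamma-delta marker genes (Cd163l1, Blk and 5830411N06Rik) summed to 552 CPM in the WT library and 98.3 in the IL31RAKO library, and a UMI of them was present in 217 of 334 and 46 of 219 cells. In cells without such a UMI, Ctla4 was at 319 CPM [278, 364] and 347 [317, 380], with overlapping intervals, and Lag3 at 34.3 [22.0, 51.1] and 49.5 [38.6, 62.6]. In cells with one, Ctla4 was at 73.7 [61.7, 87.4] and 158 [120, 204]. Splits by other genes left a Ctla4 gap, except in the few cells with a Foxp3 UMI (494 [403, 598] and 505 [420, 602]). Cells with a Cd8a UMI had 224 [193, 259] and 315 [280, 352], and those without had 103 [88.4, 120] and 301 [264, 341]. Cells without a Foxp3 UMI had 110 [96.8, 124] and 277 [251, 304]. Cd8a itself stood at 91.5 and 223 CPM, and the part of makeup in the Ctla4 difference was not tested. Cd160 kept a gap in cells without the gamma-delta markers, at 8.58 [3.15, 18.7] and 26.9 [19.0, 36.9]. Cells assigned one by one from markers gave ratios of 1.08 for Cd160 and 1.21 for Lag3.

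**Figure D5:**
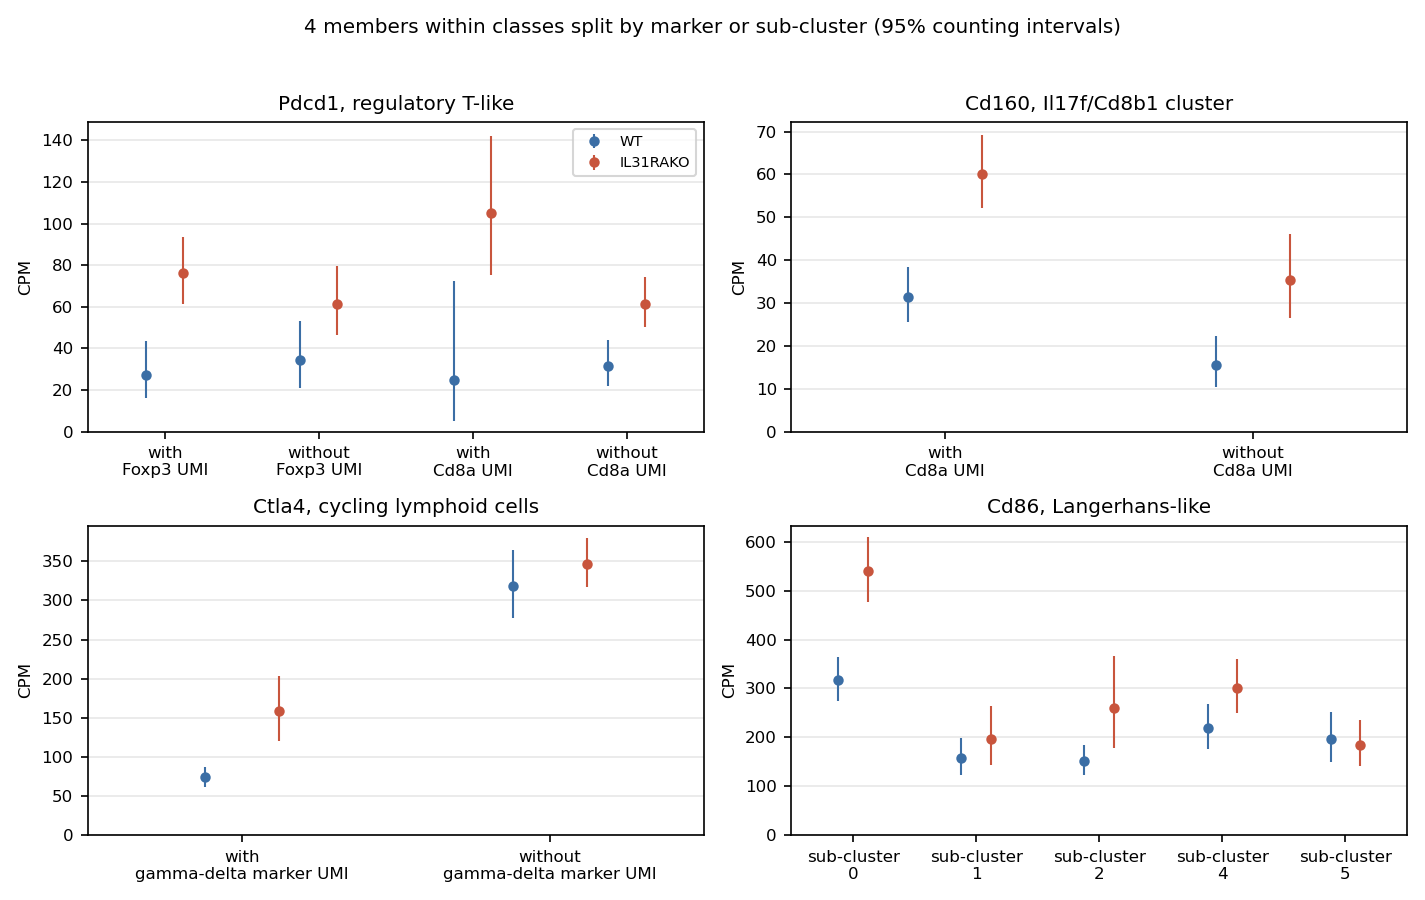
CPM of Pdcd1, Cd160, Ctla4 and Cd86, each in 1 class split by a marker UMI or by sub-cluster, with WT in blue, IL31RAKO in red and bars for 95% counting intervals on axes from 0. Pdcd1 and Cd160 are higher in the IL31RAKO library in every subset shown. Ctla4 in cycling cells is apart in those with a gamma-delta marker UMI (73.7 and 158) and not in those without (319 and 347). Cd86 is higher in 4 of 5 Langerhans-like sub-clusters (sub-cluster 3 belongs to another class).

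Cd86 was higher in the Langerhans-like cells of the IL31RAKO library, at 334 CPM from 522 UMIs in 135 cells against 212 from 531 in 262 cells of the WT library, a ratio of 1.57 [1.39, 1.78]. Among the 4 members compared in the class, Ctla4, Icos and Cd86 were 1.5-fold or more higher and Cd80 lower, where 5.02% and 4.16% of all genes were. By sub-cluster, Cd86 went from 317 to 540, from 157 to 197, from 151 to 260 and from 219 to 301 CPM, WT to IL31RAKO, and in the last from 196 to 185. Dissociation stress genes were lower in the IL31RAKO library in every one of these sub-clusters, and in the class at 5477 and 3924 CPM, and their part in the Cd86 difference was not tested. The share of cells with a Cd86 UMI after thinning was 21.7% and 23.1%, with intervals that overlap, and 75.6% and 87.4% before it. Assigned one by one from markers, Langerhans cells gave a ratio of 1.43, under the limit.

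In 6 further classes Cd86 had an interval that did not include 1 but stayed within 1.5-fold. It was higher in the IL31RAKO library in the macrophage-like Cxcl16/Sgk1 cluster (1.38 [1.14, 1.67]), cDC2-like (1.22 [1.07, 1.39]) and monocyte-like cells (1.21 [1.03, 1.44]), and lower in the Apod/Rbp4 cluster (0.681 [0.501, 0.927]), the Il17f/Cd8b1 cluster (0.674 [0.546, 0.831]) and the macrophage-like Ccl8/Pf4 cluster (0.776 [0.606, 0.999]). In the cDC1-like cells the ratio was 0.884 [0.768, 1.02]. Among the classes compared its largest difference, a ratio of 0.395 [0.202, 0.733], came from 39 and 15 UMIs in a mixed cluster of shallow cells led by haemoglobin, mast cell and B cell genes.

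The remaining ligand pairs past 1.5-fold rested on few counts. Cd274 was lower in the macrophage-like Ccl8/Pf4 cluster (14.3 CPM from 25 UMIs, 8.31 from 42, 0.581 [0.346, 0.995]), Cd80 in the Langerhans-like cells (16.0 from 40, 10.2 from 16, 0.640 [0.335, 1.17]) and Pdcd1lg2 in the Il13/Tnfsf8 cluster (34.3 from 32, 22.7 from 26, 0.662 [0.379, 1.15]). Each of these calls was lost under 3 or 4 of the alternative settings. In the neutrophil-like cells Cd80 had a ratio of 0.686 [0.445, 1.09], and Pdcd1lg2 was at 24.2 and 30.2 CPM in the cDC2-like cells (1.25 [0.970, 1.62]).

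Icos was the receptor gene with the most pairs, 20, and 1 of them passed 1.5-fold. In the dermal gamma-delta T-like cells it stood at 480 CPM from 1475 UMIs in the WT library and 346 from 421 in the IL31RAKO library (0.721 [0.645, 0.804]). Lower ratios, of 0.694 [0.550, 0.876] in the cDC2-like cells and 0.698 [0.532, 0.914] in the macrophage-like Cxcl16/Sgk1 cluster, came at 37.4 and 25.9 and at 43.7 and 30.5 CPM, levels like those of the keratinocyte-like and stromal cells. In the dermal gamma-delta T-like cells after thinning, 34.8% of WT cells [31.6, 38.2] and 21.1% of IL31RAKO cells [17.0, 25.7] had an Icos UMI (67.2% and 51.8% unthinned, against 20.2% and 24.4% of the deeper keratinocyte-like cells). Pdcd1 did not differ beyond counting error in the same cells (1.02 [0.853, 1.22]). In cycling lymphoid cells Icos had a ratio of 1.17 [1.07, 1.28], and in the Cd7/Avil cluster 1.47 [1.06, 2.03].

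Several higher pairs of Ctla4 and Icos lay in myeloid classes, at levels like those of the keratinocyte-like and stromal cells. Ctla4 stood at 11.0 and 27.8 CPM in the cDC1-like cells (2.52 [1.49, 4.51], with 11 of the 93 IL31RAKO UMIs in 1 cell), at 15.9 and 24.7 in the cDC2-like cells (1.55 [1.15, 2.12]), at 15.2 and 23.2 in the macrophage-like Cxcl16/Sgk1 cluster (1.53 [1.04, 2.28]) and at 13.2 and 19.8 in the Langerhans-like cells (interval of the ratio [0.891, 2.53]). Icos in the Langerhans-like cells (21.2 and 35.2 CPM, 1.66 [1.12, 2.47]) and Tigit in the monocyte-like cells (3.80 and 6.92, 1.82 [0.903, 4.06]) were of the same kind. The Ctla4 calls in the cDC2-like and the macrophage-like Cxcl16/Sgk1 cells were each lost under 3 alternative settings, that in the Langerhans-like cells under 4 and that of Icos under 2. In these myeloid classes the part of the level estimated from free RNA, itself from few UMIs, was not higher in the IL31RAKO library. For Ctla4 it was 10.4 and 9.75 CPM in the cDC1-like cells, 12.6 and 8.94 in the cDC2-like cells, 13.8 and 9.84 in the macrophage-like Cxcl16/Sgk1 cluster and 12.1 and 8.68 in the Langerhans-like cells. For Icos in the Langerhans-like cells it was 28.3 and 23.3. In the keratinocyte-like cells Ctla4 was likewise higher in the IL31RAKO library, at 15.6 and 24.0, and there the free RNA part was higher too, at 6.38 and 12.5. What sets these differences was not tested. In lymphocytes, Ctla4 in the Cd7/Avil cluster (23.5 and 42.7 CPM, 1.82 [1.16, 2.86]) and Pdcd1 in the Ms4a4b/Cd40lg cluster (78.1 and 125, 1.59 [1.15, 2.22]) made up the remaining higher pairs. For Ctla4 in the Cd7/Avil cluster the free RNA part was higher in the IL31RAKO library, at 7.96 and 17.9 CPM, and the call was kept with free RNA subtracted.

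Genes that work with the set were read in the same way, from lists chosen with earlier results of these data known. Other genes of the CD28 and B7 families (6 genes, among them Cd28, Icosl and Vsir) gave 4 higher (8.89%) and 3 lower (6.67%) of 45 pairs, against 4.32% and 4.49% of all gene and class pairs, with a median log2 ratio of 0.03. Other inhibitory receptors and their ligands (14 genes) gave 10 (8.26%) and 11 (9.09%) of 121, the transcription factors of activation and exhaustion (12 genes) 9 (6.82%) and 10 (7.58%) of 132, the interferon-gamma to PD-L1 axis (9 genes) 12 (8.89%) and 10 (7.41%) of 135, and genes of checkpoint signalling and traffic (9 genes) 4 and 6 of 160. The medians of these 4 lists lay between -0.01 and 0.04. In the regulatory T-like cells the inhibitory receptor gene Cd200r1 (1.52 [1.16, 2.00]) and Cd200, which encodes its ligand (1.61 [0.853, 3.2]), were higher beside Pdcd1, and the activation-induced factor gene Nr4a2 (0.565 [0.373, 0.855]) and the heat shock genes Hspa1a (0.317 [0.242, 0.414]) and Hspa1b (0.195 [0.111, 0.329]) were lower. In the Langerhans-like cells Pvr, a ligand of TIGIT, was higher beside Cd86, at 32.0 and 49.9 CPM (1.56 [1.13, 2.16]), and Hspa1a (0.248), Hspa1b (0.126) and Fos (0.551) led the lower genes. In cycling lymphoid cells the T cell kinase gene Lck (2.61 [2.27, 3.0]), Cd28 (2.08 [1.73, 2.51]) and Egr1 (2.06 [1.49, 2.85]) led the genes higher beside Ctla4. Egr1 is an early response gene of the dissociation stress list. Havcr2, which encodes the checkpoint receptor TIM-3 (0.574 [0.448, 0.731]), and Hspa1a of the stress list (0.552 [0.391, 0.768]) were lower. The gamma-delta markers were lower there too. The dissociation stress list (8 genes) gave 5 higher and 38 lower of 156 pairs, 24.4% lower, with a median log2 ratio of -0.17. Most of the lower pairs were of Hspa1a and Hspa1b, and all the higher pairs were of Egr1. The other lower pairs lay mainly in the Ccl5/Gzma cluster and the Langerhans-like cells, so the list did not move as a whole across classes.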

How the data were processed

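Droplet 3′ libraries of sorted skin CD45+ cells were read from 2 deposited matrices of UMI counts per gene and barcode, made by the authors and not normalized. The submitters' processing notes name Cell Ranger 3.1, Seurat 3.2.2 and the build mm10, without saying which step each served. The matrices list 737280 barcodes, so empty droplets are included, and 192 barcode sequences passed the filter in both libraries. Barcodes under 500 UMIs, under 250 genes or at 10% or more mitochondrial UMIs were left out here (11934 and 14619 kept), and Scrublet scores marked 1139 (9.54%) and 1710 (11.7%) as doublets, at the rate set from the cell number (0.8% per 1000 cells). Cells were clustered with scanpy 1.11.5 (2000 variable genes, 30 components, 15 neighbours, Leiden resolution 1.0) without the 10 genes. The 20 clusters were named from 24 marker lists, 7 of whose genes were not found in the gene file, and 3 clusters were split after their markers were seen. Names rebuilt in this way may differ from the study's own.

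Counts were summed per class and library. Intervals are exact (Poisson for levels, binomial for ratios and shares, 95%) and cover counting error only. With 1 library per genotype no p-value was computed. A pair was called at a ratio of 1.5 or more either way with 50 or more UMIs over both libraries and 100 or more cells in each. All 10 genes were named wherever they had 50 or more UMIs; genes of like pattern were the 3 with the highest r, and list genes were named when called in a class described with the lists, at most 3 a direction, farthest interval bound from 1 first; any such gene not given is not reported here. Free RNA was read from barcodes of 10 to 50 UMIs. The members and gene lists were chosen with earlier results of these data known. The ratio calculation was tested on simulated data. Alternatives were doublets kept, marker gating of single cells, another resolution, scaling, means over cells, free RNA subtraction, stricter filters, other UMI minimums and removal of the top cell. Promoter windows were also searched for other motifs, which are not reported here.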

Additional observations from a re-analysis of the deposited data

How the results depend on the processing

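With 1 library per genotype, no replicate can be left out. No paired analysis was possible because each genotype has 1 library. The number of higher pairs, 15, was 34 (of 159 pairs) with a minimum of 20 UMIs and 52 (of 195) with none. The number of lower pairs, 5, was 2 with cells gated one by one, 3 at Leiden resolution 2.0, 8 with means over cells, 9 with a minimum of 20 UMIs, 19 with none and 2 with clusters not split. That last setting was among 3 chosen after seeing the data. The share of all genes called was not counted under these changed settings, so the higher and lower counts have no background there. The larger counts at lower UMI minimums are therefore not read as a stronger excess. Intervals of the shares of cells after thinning to 1000 UMIs did not overlap between libraries in 3 pairs higher and 1 lower of the 102. Unthinned, they were 12 and 3, and the lower pair was lost (0) at 2000 UMIs. The same count over all genes was not made, so these numbers have no background and are not read as an excess. Among 163 checks of called pairs, 135 kept the call and 28 lost it, and no ratio changed side. The calls of Pdcd1 in regulatory T-like cells (2.04 to 2.54), Cd160 in the Il17f/Cd8b1 cluster (1.91 to 2.31) and Lag3 in the Gzmc/Xcl1 cluster (0.363 to 0.540) held in every setting run. Gating single cells ended the calls of Cd160 and Lag3 in cycling lymphoid cells and of Cd86 in Langerhans-like cells, and keeping doublets ended that of Ctla4 in the Cd7/Avil cluster (1.33). The Ctla4 ratio in cDC1-like cells ran from 1.57 to 26.0 over the settings. Depth left Tigit with 3, Cd80 with 5, Cd160 with 6 and Cd274 with 7 of the 20 classes to compare.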

Other observations

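In the dermal gamma-delta T-like cells, where the share of all genes past 1.5-fold was 4.26% higher and 7.81% lower, the interferon-gamma receptor gene Ifngr1 stood at 106 and 249 CPM (2.36 [2.01, 2.76]). The transcription factor genes Tcf7 (2.06 [1.55, 2.73]) and Tox (1.83 [1.40, 2.40]) were also higher. Havcr2, which encodes the checkpoint receptor TIM-3, stood at 93.1 and 33.7 CPM (0.362 [0.254, 0.504]), and Prdm1 (0.313 [0.170, 0.537]) and Batf (0.619 [0.484, 0.785]) were also lower. Of the 9 activation and exhaustion factor genes compared in these cells, 2 were higher and 4 lower. The others lower were Nr4a2 (0.569 [0.353, 0.884]) and Irf4 (0.632 [0.305, 1.21]). Irf4 had 48 and 12 UMIs, and its interval included 1.

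Some genes were followed over classes after their values were seen. Ifngr1 was 1.5-fold or more higher in the IL31RAKO library in 6 of 20 classes and lower in 0, and Havcr2 was lower in 4 of 16 and higher in 0, where 4.32% of all gene and class pairs were higher and 4.49% lower. The others were higher and lower in 1 and 6 of 19 classes (Nr4a2), 1 and 1 of 20 (Batf), 1 and 1 of 10 (Tox), 2 and 0 of 10 (Tcf7) and 0 and 1 of 9 (Prdm1). All of these genes were called in the dermal gamma-delta T-like cells above, and each count includes that class. The lower calls of Prdm1 and Batf and the higher call of Tox were made in it. Havcr2 was also lower in cycling lymphoid cells, where the gamma-delta markers were lower. The counts are therefore not read as an excess over all pairs. Btla, the receptor that shares HVEM with CD160, was highest in the cDC1-like cells, at 34.4 and 62.4 CPM (1.82 [1.34, 2.50]).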
